A study of Mus musculus with 12 samples.

Results

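The Iroquois genes Irx1, Irx2, Irx3, Irx4 and Irx5 were examined in sorted cells of newborn mouse kidney (postnatal day 0). Each gene was found by a fixed window on the mm9 genome build. Transcripts of the deposited table that overlap on the same strand were summed to a locus, and the 5 genes are 5 of 26699 such loci. The strand of each locus was that of the gene of the same name in the GENCODE annotation. For Irx1 and Irx5 the span, 5492 and 3661 bases, also equalled the RefSeq gene length.

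RNA was sequenced from Six2-expressing cells that carried a R26R-tdTomato reporter and were isolated by flow cytometry, from kidneys titled control or mutant, in fractions titled low or high expression. There were 4 control low, 4 mutant low, 2 control high and 2 mutant high samples. The series title names Eed, a core subunit of Polycomb repressive complex 2, but the sample labels name no allele, driver, strain or sex for either genotype. The reporter is common to all 4 groups. What high and low refer to is not stated in the titles. No label says which samples come from the same animal. A low and a high sample share description numbers 6 and 8 in control and 5 and 7 in mutant kidneys. What these numbers stand for is not stated, and the main tests treat the samples as unpaired. Each p-value therefore reflects variation among these samples alone, and part of it may be technical. Cell type markers were not analysed here, because the table carries UCSC transcript identifiers without gene names. Libraries held 4549011 to 12365078 fragments. Of the control high fragments, 4.51% and 10.3% lay on chromosome M, against at most 1.96% in the other 10 libraries.

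Iroquois genes encode homeodomain transcription factors and lie in a pair of clusters, Irx1, Irx2 and Irx4 in the first and Irx3, Irx5 and Irx6 in the second. In the developing nephron, the filtering unit of the kidney, Irx1, Irx2 and Irx3 are known as markers of the middle segment of the S-shaped body, which gives rise to the loop of Henle, and Iroquois genes pattern the intermediate tubule in amphibian kidney. Polycomb repressive complex 2 methylates histone H3 and keeps many developmental regulators silent, often at promoters rich in the dinucleotide CG.

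The members share a homeobox, the stretch that encodes the DNA-binding homeodomain, and that bears on how fragments can be assigned among them. The longest exact stretch common to Irx2 and Irx5 transcripts had 65 bases and that common to Irx3 and Irx5 had 50, both within coding sequence of GENCODE release M21 transcripts. No other pair shared more than 32 bases. The 92 bases of Irx5 that cover both stretches are shown with the matching stretch of the other members, in transcript orientation, with capitals where a base differs from Irx5.
Irx1: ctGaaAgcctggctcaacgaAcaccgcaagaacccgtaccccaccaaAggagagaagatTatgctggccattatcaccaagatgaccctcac
Irx2: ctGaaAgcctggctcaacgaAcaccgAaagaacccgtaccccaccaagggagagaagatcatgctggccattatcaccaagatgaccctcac
Irx3: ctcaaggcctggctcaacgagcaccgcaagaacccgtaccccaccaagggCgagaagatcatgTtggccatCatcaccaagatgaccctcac
Irx4: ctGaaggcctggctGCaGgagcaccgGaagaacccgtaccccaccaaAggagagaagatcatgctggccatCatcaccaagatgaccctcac
Irx5: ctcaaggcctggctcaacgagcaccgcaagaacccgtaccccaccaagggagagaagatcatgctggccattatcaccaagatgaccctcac
Irx3 matched Irx5 at 89 of the 92 bases, Irx2 at 88, Irx1 at 87 and Irx4 at 85. A fragment confined to a stretch that members share exactly cannot be assigned to 1 gene. The handling of such fragments is not given in the sources used here, nor is the read length. The transcripts are 2373 to 2625 bases long, so these stretches are a small share of each.

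RefSeq promoter windows on GRCm38.p6, from 250 bases before to 50 bases after the start, were matched for 3 members by symbol and are shown because Polycomb targets are often rich in CG. Capitals mark CG.
Irx2 (chr13:72628570-72628869, plus strand): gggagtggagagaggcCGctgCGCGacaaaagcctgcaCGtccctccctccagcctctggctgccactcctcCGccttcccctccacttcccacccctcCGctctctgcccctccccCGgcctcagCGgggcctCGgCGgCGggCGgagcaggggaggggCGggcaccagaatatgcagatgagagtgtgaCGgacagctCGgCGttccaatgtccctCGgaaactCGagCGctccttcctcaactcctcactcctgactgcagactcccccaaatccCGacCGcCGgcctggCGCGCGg
Irx3 (chr8:91801605-91801904, minus strand): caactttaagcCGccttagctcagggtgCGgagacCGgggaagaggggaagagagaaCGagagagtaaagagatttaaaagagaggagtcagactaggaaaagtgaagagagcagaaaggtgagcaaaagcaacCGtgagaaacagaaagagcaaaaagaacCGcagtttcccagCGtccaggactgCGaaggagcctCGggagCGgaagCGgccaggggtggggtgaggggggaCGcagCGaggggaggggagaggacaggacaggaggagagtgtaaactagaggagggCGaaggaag
Irx4 (chr13:73260247-73260546, plus strand): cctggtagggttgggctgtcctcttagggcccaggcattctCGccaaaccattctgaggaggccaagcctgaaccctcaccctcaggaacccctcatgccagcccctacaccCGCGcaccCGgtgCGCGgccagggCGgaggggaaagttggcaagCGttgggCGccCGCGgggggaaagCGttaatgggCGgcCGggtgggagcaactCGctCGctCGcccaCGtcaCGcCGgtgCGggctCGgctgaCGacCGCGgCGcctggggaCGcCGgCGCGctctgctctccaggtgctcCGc
The Irx4 window held 31 CG, Irx2 25 and Irx3 14, where the median over 32851 promoter windows of the same length was 7. At least as many CG were found in 10.6%, 18.4% and 36.3% of all windows. The letters TATAAA, searched on both strands, were in none of these 3 windows and in 13.6% of all windows. Promoter windows for Irx1 and Irx5 were not used here.

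Levels are given as CPM, fragment counts relative to library size, scaled between libraries by TMM, a method that corrects for a few abundant loci. Irx3 (uc009msu.1, mm9 chr8:94322424-94325273, minus strand) was the most abundant member. In control low cells it stood at 5.50, 7.07, 6.16 and 11.5 CPM in the 4 libraries. In mutant low cells it stood at 59.0, 43.3, 69.5 and 78.7 CPM. The lowest mutant low library was thus well above the highest control low library. Control high cells had 72.6 and 56.4 CPM and mutant high cells 73.0 and 55.4 CPM, so only the control low group stood apart and the other groups overlapped.

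Irx5 (uc009mub.1, mm9 chr8:94881695-94885355, plus strand), its neighbour in the cluster and a gene known from heart and retina, had another order of groups. It stood at 1.29, 0.544, 0.973 and 3.04 CPM in control low cells and at 6.66 and 5.39 CPM in control high cells. Mutant low cells had 19.0, 14.0, 31.6 and 43.8 CPM. Mutant high cells had 22.8 and 17.2 CPM. Both control groups lay below both mutant groups, and the 2 mutant groups overlapped.

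Irx2 (uc007rde.1, mm9 chr13:72766426-72771642, plus strand) was higher in every high library than in any low library. It stood at 2.11, 7.88, 0.757 and 1.64 CPM in control low and at 5.77, 5.49, 7.78 and 4.38 CPM in mutant low cells. It reached 26.2 and 27.2 CPM in control high and 31.0 and 15.6 CPM in mutant high cells. The other 3 control low libraries were below all 4 mutant low libraries, and control low replicate 2, at 7.88 CPM, was above them.

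Irx1 (uc007rdd.1, mm9 chr13:72095680-72101171, minus strand) was sparse, with 1 to 10 fragments in each low library and 7 to 36 in each high library. It stood at 0.117 to 0.951 CPM in control low (median 0.638) and 0.111 to 0.924 CPM in mutant low cells (median 0.711). Control high cells had 3.12 and 5.10 CPM. Mutant high cells had 3.48 and 0.862 CPM, the second within the range of the low libraries.

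Irx4 (uc007rdf.2, mm9 chr13:73397945-73407068, plus strand), best known from the ventricles of the heart, held the fewest fragments over all libraries. In mutant low cells its 38 fragments exceeded the 23 of Irx1. Irx4 held 7, 1, 5 and 5 fragments in control low and 7, 5, 15 and 11 in mutant low libraries. It held 1 and 0 in control high and 1 and 1 in mutant high libraries. It did not pass the filter on low counts and was not tested with the other 4. The order ran opposite to that of Irx1 and Irx2, with more fragments in low than in high cells, although the control groups overlapped in CPM.

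**Figure D1:**
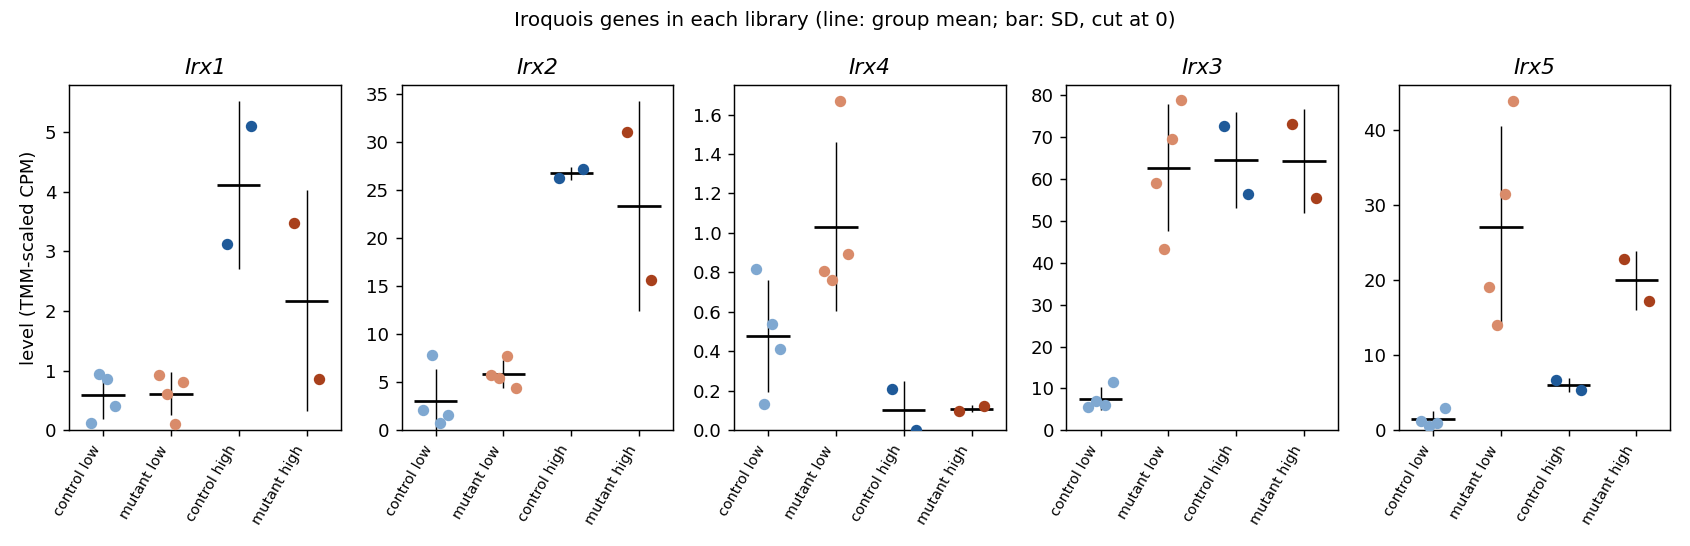
TMM-scaled CPM (vertical axis, a scale of its own for each gene) of each Iroquois gene in each library, by group; points are libraries, horizontal lines are group means and vertical bars are SD, drawn no lower than 0. Irx3 is low only in control low cells, Irx5 is higher in both mutant groups, and Irx1 and Irx2 are higher in high cells, with 1 mutant high library of Irx1 at 0.862 CPM.

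To compare genes, levels were divided by exonic length (CPM per kb of the GENCODE transcript closest in span). In control low cells Irx3 stood at 2.89 ± 1.04 and Irx2 at 1.18 ± 1.23 CPM per kb (SD, n = 4), and their libraries overlapped. Irx5, Irx1 and Irx4 were below 1 on average, and each overlapped its neighbour in the order. In mutant low cells Irx3 led at 24.0 ± 5.82, followed by Irx5 at 11.1 ± 5.46 and Irx2 at 2.23 ± 0.539 CPM per kb (SD, n = 4). The ranges of Irx3 and Irx5 overlapped between libraries, those of Irx5 and Irx2 did not. In control high cells the order was Irx3, Irx2, Irx5, Irx1, with 24.7 ± 4.38, 10.2 ± 0.272, 2.46 ± 0.366 and 1.73 ± 0.591 CPM per kb (SD, n = 2). In mutant high cells Irx2, at 8.88 ± 4.14, and Irx5, at 8.17 ± 1.61 CPM per kb (SD, n = 2), overlapped below Irx3 at 24.6 ± 4.78. Irx3 was thus the highest member on average in all 4 groups. By the mean, the gene in second place was Irx5 in mutant low cells and Irx2 in the other 3. In control low and mutant high cells Irx2 and Irx5 overlapped, and some libraries had Irx5 above Irx2.

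**Figure D2:**
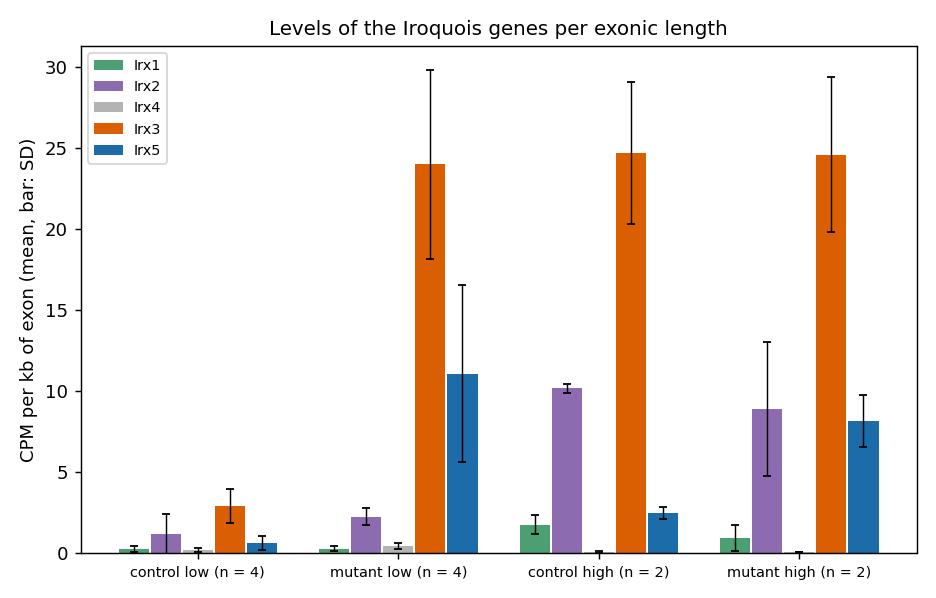
Mean CPM per kb of exon for each Iroquois gene (bars) with SD (lines) in the 4 groups. Irx3 is the tallest bar in every group, at 24.0 to 24.7 with TMM scaling in all groups but control low.

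The first test compared mutant with control samples within the low population. Irx3 and Irx5 rose, by 8.24-fold and 17.7-fold. In bulk samples a larger share of expressing cells and more RNA per cell cannot be told apart. For Irx3 the log2 fold change was 3.04 (SE 0.28, Benjamini-Hochberg adjusted p = 1.51e-05 by the quasi-likelihood test of edgeR). For Irx5 it was 4.14 (SE 0.48, edgeR adjusted p = 0.000101), and 4.82 without control low replicate 4, the highest of the control low libraries. The 4 mutant low libraries exceeded the 4 control low libraries for both genes. Of 13749 loci tested, 8.03% were called at an adjusted p under 0.05, 4.82% higher and 3.21% lower. Irx2 and Irx1 were not called. The estimate for Irx2 was 0.95 (SE 0.54, edgeR adjusted p = 0.352) and that for Irx1 0.11 (SE 0.69, edgeR adjusted p = 0.951). Irx1 passed the filter only through the high libraries, since a fit of the 2 low groups alone tested 3 members and not Irx1. The Irx2 value rested on control low replicate 2. Without that library the log2 fold change was 1.95 (edgeR adjusted p = 0.00730). With control low replicate 1, 3 or 4 left out instead, it was 0.82, 0.63 and 0.73 and was not called.

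The number in a sample's description field splits the low libraries into those up to 7 and those above 7, and the labels do not say what it stands for. This split was chosen after seeing the data. Within each, with 2 libraries a group, Irx3 changed by 3.06 and 3.09 and Irx5 by 4.16 and 4.21 on the log2 scale (edgeR adjusted p of 0.000808 and 0.000246 for Irx3, 0.00147 and 0.000568 for Irx5). For Irx2 the values were 0.22 (edgeR adjusted p = 0.893) up to 7 and 2.31 (edgeR adjusted p = 0.0174) above 7. The difference between them was not tested, and control low replicate 2 is among the libraries up to 7. Irx4, fitted without the filter on low counts, stood at 1.12 on the log2 scale (SE 0.60, edgeR adjusted p = 0.385).

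The same question was asked of high cells, where 27.5% of all loci were called, 16.3% higher and 11.2% lower in mutant cells. None of the 4 members tested was called by edgeR, and Irx5 alone had an unadjusted p under 0.05 (0.0142). Irx3 had a log2 fold change of -0.01 with an interval of -0.78 to 0.77 (95%, from the fit's SE and degrees of freedom). Irx2 had -0.19 (interval -1.69 to 1.31) and Irx1 -0.88 (interval -2.55 to 0.79). Irx5 stood 3.31-fold higher in mutant high cells, a log2 fold change of 1.73 (SE 0.62), with both mutant libraries above both control libraries. Its adjusted p was 0.0513 in edgeR and 0.0303 in DESeq2, and 11 of 24 other settings called it higher. Irx4 held 2 fragments in mutant high and 1 in control high cells, and the ratio of 0.902 had a counting interval of 0.0470 to 53.2.

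The mutant effect on Irx3 differed between the populations. It was lower in high than in low cells by 3.05 on the log2 scale (log2 difference -3.05, SE 0.46, edgeR adjusted p = 0.00162 for the interaction). By this test 10.3% of loci were called. Of all loci, 7.29% had a more positive and 3.05% a more negative effect in high cells. The positive share of those calls was 70.5%, and 58.2% once a trend with locus span had been taken out. For Irx5 the difference was -2.42 (SE 0.77) and was not called, with an adjusted p of 0.0590 in edgeR and 0.0161 in DESeq2. The differences for Irx2 (-1.15, SE 0.88, edgeR adjusted p = 0.449) and Irx1 (-0.99, SE 1.05, edgeR adjusted p = 0.600) were not called. Without control low replicate 2 that of Irx2 was -2.15 (edgeR adjusted p = 0.0343). With control low replicate 1, 3 or 4 left out instead, that of Irx2 was -1.01, -0.86 and -0.93 and was not called. In TMM-scaled CPM both populations of the mutant held Irx3 near the level of control high cells, as the values by library show. By plain library totals Irx3 averaged 49.8 CPM in control high, 69.5 in mutant high and 64.6 in mutant low cells.

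**Figure D3:**
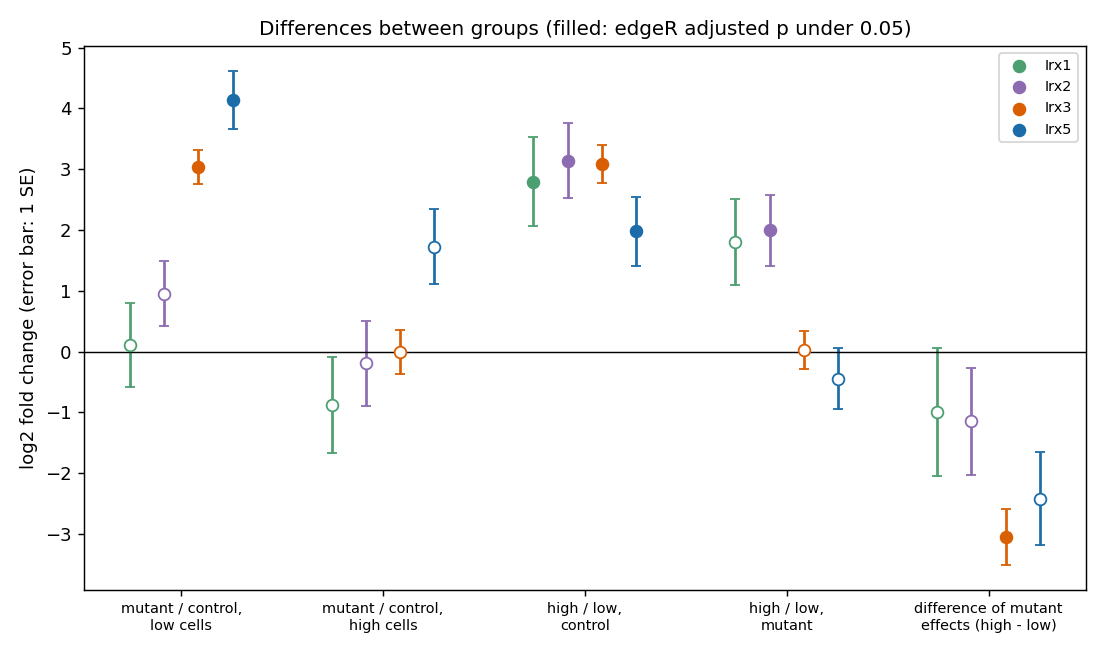
Log2 fold changes (vertical axis) with 1 SE for the 4 members tested in each of the 5 comparisons; filled points had an edgeR adjusted p under 0.05. Irx3 and Irx5 are filled and above 3 for mutant against control low cells, and Irx2 alone is filled for high against low mutant cells. All 4 genes are filled for high against low control cells. Irx1 was kept by the filter through its high libraries, so no test is read from its filled point.

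High cells were then compared with low cells of the same genotype. In control kidneys Irx2, Irx3 and Irx5 rose in high cells, where 52.3% of all loci were called, 25.3% higher and 27.0% lower. Irx2 rose 8.84-fold (log2 fold change 3.14, SE 0.61, edgeR adjusted p = 0.000758). Irx3 rose 8.48-fold (log2 fold change 3.08, SE 0.31, edgeR adjusted p = 1.57e-06). Irx5 rose 3.94-fold (1.98 in log2, SE 0.57, edgeR adjusted p = 0.00932). For these 3 genes both control high libraries lay above the 4 control low libraries. Irx1 stood 6.95-fold higher in high cells (2.80 in log2, SE 0.73). It passed the filter on low counts through the libraries in which it is high, so this value is a description and no test is read from it.

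Single libraries weighed on these values. The Irx2 change was 4.14 on the log2 scale without control low replicate 2, and the Irx5 change 2.66 without control low replicate 4. With 1 control high library left, the call was lost for Irx5 without replicate 1 (log2 fold change 1.79, edgeR adjusted p = 0.0785). The lone library is then assumed to vary like the other groups. Irx4 held 18 fragments in control low and 1 in control high cells, and the ratio of 4.02 had a counting interval of 0.634 to 167. Counting intervals cover counting error only.

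In mutant kidneys 32.2% of all loci were called, 19.0% higher and 13.2% lower in high cells. Irx2 rose by 3.99-fold (log2 fold change 2.00, SE 0.59, edgeR adjusted p = 0.0195), with both high libraries above the 4 low libraries. The call was lost without mutant high replicate 1 (log2 fold change 1.40, edgeR adjusted p = 0.214) and without mutant low replicate 4 (1.87, edgeR adjusted p = 0.0530). It was also lost with a term for the description numbers (1.65, edgeR adjusted p = 0.0669) and with each transcript as a feature (1.99, edgeR adjusted p = 0.0936). For Irx1 the difference was 1.81 (SE 0.71), and 2.45 without mutant high replicate 2. A fit of the 2 mutant groups alone did not keep Irx1, so these values too are a description. For Irx3 the log2 fold change was 0.04 (interval -0.63 to 0.70) and for Irx5 -0.44 (interval -1.51 to 0.63), and neither was called. Irx4 held 38 fragments in mutant low and 2 in mutant high cells, a ratio of 9.61 with a counting interval of 2.48 to 82.2. Fitted without the filter on low counts, its log2 difference was -3.11 (SE 0.96). Irx4 did not pass that filter in the main fit, so this value is a description and no test is read from it. High against low cells and mutant against control cells share libraries, so the values of a gene in these comparisons are not independent of each other.

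The other loci in the windows carried few or no fragments. A minus-strand locus 413 bases upstream of Irx2 (chr13:72760914-72766012) held 0 to 8 fragments in each library. A minus-strand locus 1675 bases upstream of Irx5 (chr8:94849937-94880019) held 1 fragment in all 12 libraries together. A plus-strand locus 800 bases upstream of Irx3 (chr8:94326074-94329114) was listed at 0 throughout. GENCODE on GRCm38 places the noncoding gene Irx3os on the plus strand with 124 exon bases in common with Irx3. Use of strand in counting is not stated, so fragments of Irx3 and of an antisense partner cannot be told apart.

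No other locus tested within 500 kb of the outermost member windows was called higher in mutant low cells. So few loci were tested that this cannot show whether the rise was limited to Irx3 and Irx5. On chromosome 8, 5 of 36 other loci were tested, and 0 were called higher or lower between mutant and control low cells. Their median was -0.25 on the log2 scale, against -0.06 over all loci. Of all loci, 4.82% were called higher and 3.21% lower in this comparison. In control high against low cells both Irx3 and Irx5 rose, and 27.0% of all loci were lower and 25.3% higher. Of the 5 loci, 3 were lower in high cells and 0 were higher. The largest of these falls, at chr8:95351227-95377319, was -4.60 on the log2 scale (SE 0.38, edgeR adjusted p = 2.54e-07), and the same locus fell by 1.80 in mutant high against mutant low cells (edgeR adjusted p = 0.000533). In mutant against control high cells 2 of the 5 were higher, against 16.3% of all loci. The larger of these rises, at chr8:95379249-95443178 (log2 fold change 2.54, SE 0.62, edgeR adjusted p = 0.00819), also led the interaction (2.84, edgeR adjusted p = 0.0253).

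On chromosome 13, 9 of 13 other loci were tested. In mutant low cells 3 were lower and 0 higher, against 3.21% and 4.82% of all loci. The largest fall was -4.60 at chr13:73799198-73815471 (SE 0.53, edgeR adjusted p = 0.000137). That locus also had the largest fall in mutant against control high cells (-2.41, edgeR adjusted p = 0.00871). There 2 loci were higher and 3 lower, against 16.3% and 11.2% of all loci. The same locus had the largest rise in mutant high against low cells (7.74, edgeR adjusted p = 7.35e-07). There 3 were higher and 1 lower, against 19.0% and 13.2% of all loci. In control cells 6 of the 9 were higher and 2 lower in high cells, against 25.3% and 27.0% of all loci. The largest rise was at chr13:73818605-73838143 (5.60, SE 0.47, edgeR adjusted p = 3.96e-07). The interaction called 1 of the 9, at chr13:73604831-73651986 (1.72, edgeR adjusted p = 0.0453), and 10.3% of all loci. RefSeq lists Irx6 as the other gene of the chromosome 8 cluster. No locus was assigned to it here, so it may be among the other chromosome 8 loci counted above.

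**Figure D4:**
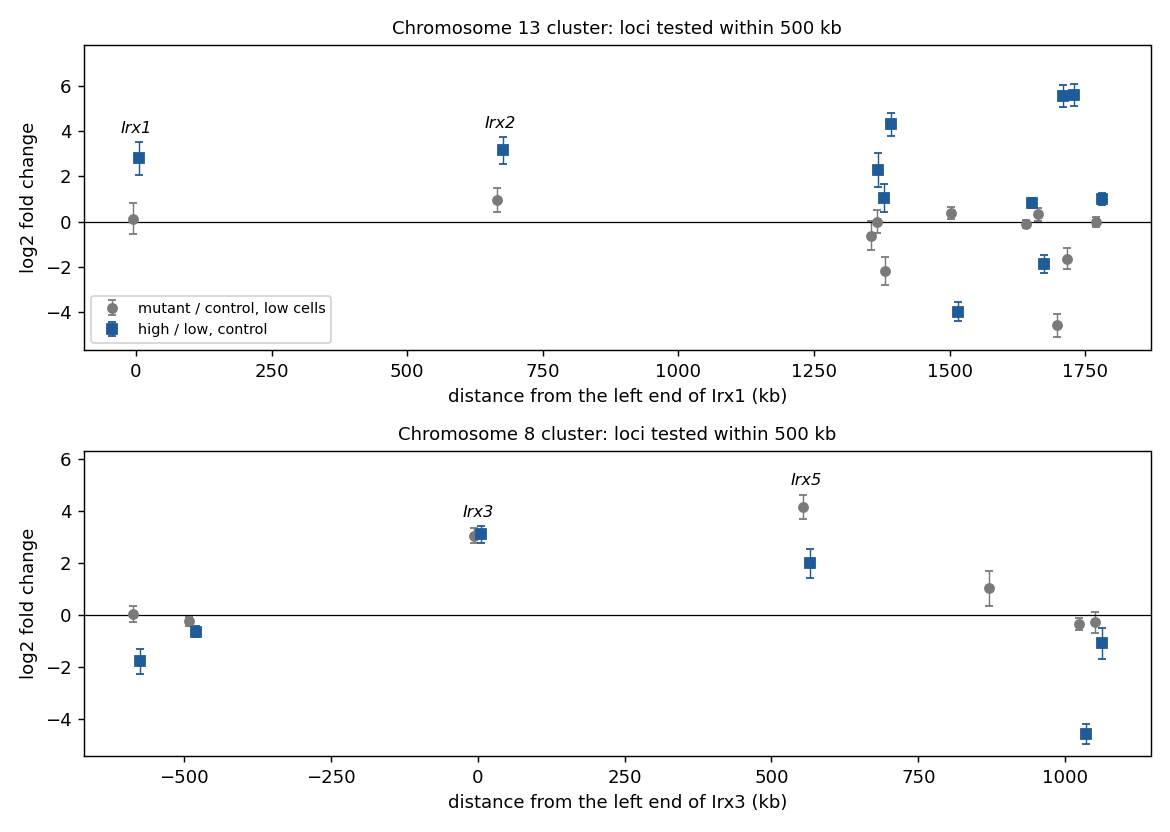
Log2 fold changes with 1 SE (vertical axis) of loci tested within 500 kb of each cluster against the distance from the left end of Irx1 or Irx3 (horizontal axis, kb), for mutant against control low cells (circles) and high against low control cells (squares, set slightly apart). A square is left out for 1 chromosome 8 locus with no fragment in control high cells. On chromosome 8, Irx3 and Irx5 alone have circles above 3.

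Among 12956 tested loci outside the windows with a mean of at least 1 CPM, those with the profile over the 12 libraries most like each member were found by Pearson's r of log2 CPM. The libraries share groups and depth, so r is a description. For Irx3 the nearest was chr13:44826207-45016346 (r = 0.97), listed at 0 in control low cells, as a failed estimate would be too, and at means of 240 CPM in mutant low, 125 in control high and 158 in mutant high cells. The next, chr19:59499594-59533125 (r = 0.97), stood at 1.18 CPM in control low, 9.65 in mutant low, 9.00 in control high and 14.97 in mutant high cells. For Irx5 the nearest were chr8:77737843-77748012 (r = 0.97) and chr8:18691337-18741551 (r = 0.95). The second of these went from 4.58 to 62.3 CPM in low and from 26.4 to 77.7 CPM in high cells between control and mutant. For Irx2 they were chr9:123079943-123125156 (r = 0.95) and chr12:80231775-80257288 (r = 0.95), and for Irx1 chr5:124423637-124453224 (r = 0.96) and chr5:97426708-97520067 (r = 0.93). Between the members, r was 0.91 for Irx3 and Irx5, 0.71 for Irx2 and Irx3, 0.70 for Irx1 and Irx2 and 0.08 for Irx1 and Irx5.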

How the data were processed

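The values deposited by the authors are estimated counts (fragments per UCSC transcript) before normalization. The file's title credits CuffDiff2. Bowtie2, HTSeq and DESeq2 appear in the submitters' processing notes with mm9, without roles. SMART-Seq cDNA was used, per the labels' protocols. Of 55418 rows, 303 lacked a position and were empty. The sums per locus, 99.6% to 99.9% of them whole within 0.01, were rounded. Starts were read as counting from 0, since 2 member spans then equal RefSeq lengths (0 otherwise), and are printed from 1.

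Members, windows and lists were chosen with earlier results of these data known. Comparisons used edgeR 4.0.16 (R 4.3.3, quasi-likelihood) on 12 samples in 4 groups, with TMM, filterByExpr, no covariate and Benjamini-Hochberg adjustment over 13749 loci at 0.05, two-sided. It was tested on simulated data. Other settings used DESeq2 1.42.0 and limma 3.58.1. The median log2 change of all loci in high against low control cells was -0.13 with TMM and -0.03 with RLE. All 5 members are named in each comparison. Further loci are the 2 with the highest r per tested member, and, per cluster and comparison, the called locus with the largest change. They are given by position, because the file holds no gene names.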

Additional observations from a re-analysis of the deposited data

Results flagged for a closer look

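The mutant effect on Irx3 was -3.05 on the log2 scale in high relative to low cells (edgeR adjusted p = 0.00162), which is a difference between populations under the same contrast. Irx4 in mutant low cells had 1 library far from the other 3, replicate 3 with 15 fragments and 1.67 CPM against 0.762 to 0.893 CPM. The gap took 0.855 of the group's range. Chance flags about 1 in 20 such groups.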

How the results depend on the processing

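The rise of Irx3 and Irx5 in mutant low cells, the rise of Irx2 and Irx3 in control high cells and the interaction of Irx3 kept direction and call in every setting run. The log2 change of Irx3 in mutant low cells ran from 2.91 to 3.33 and that of Irx5 from 3.81 to 4.82. Members called in mutant against control low cells numbered 2, or 3 (with Irx2) without control low replicate 2 and in low libraries with description numbers above 7, a split chosen after seeing the data. In high cells, where edgeR called 0, the count was 1 (Irx5) with DESeq2, without the filter on low counts, with only the groups compared, with the replicate block of the title numbers, with the term for description numbers, and with chromosome M and the most abundant loci left out of scaling. In high against low mutant cells, where edgeR called 1, it was 2 without the filter and 0 with the replicate block of the title numbers, the replicate block of the description numbers, the term for description numbers and each transcript as a feature. The interaction, with 1 called, gave 2 with DESeq2, both replicate blocks and the term. In the 8 libraries that share a description number, a subset chosen after seeing the data, the counts were 1, 0 and 2 in these 3 comparisons. No test is read from Irx1 or Irx4 where a count for high against low cells includes it. Leaving out single libraries gave 2 to 3 in low cells, 0 to 1 in high cells, 3 to 4 for control populations (Irx1 included), 0 to 2 for mutant populations (Irx4 entered without either control high library) and 1 to 2 for the interaction.

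The replicate numbers were not taken as pairs. Deviations of same-numbered control low and mutant low libraries correlated at 0.07, 0.28, 0.10 and 0.47, and those of low and high libraries sharing a description number at -0.08 to 0.22. These values do not settle whether samples are paired. In each high group the deviations from the mean are equal and opposite by construction. Under the replicate block of the title numbers the Irx5 change between control populations was 2.78 on the log2 scale, and 2.95 with that of the description numbers (2.94 for these 8 libraries without a block). In high against low mutant cells Irx2 was 1.59 (edgeR adjusted p = 0.124) with the title replicate block and 1.98 (edgeR adjusted p = 0.135) with the description replicate block. The Irx1 change between control populations was 2.14 with the latter block and 2.15 without it.

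Values near 0 changed sign. Irx3 in mutant against control high cells was 0.041 without the filter, 0.00016 with only the groups compared, 0.13 with the term, 0.17 with the span trend removed and 0.029 with transcripts as features, and ran from -0.22 to 0.23 without single libraries. Irx5 in high against low mutant cells was 0.25 and 0.28 with the title and description replicate blocks, 0.27 in the 8 libraries and 0.12 with the term. Irx3 there was -0.088 with the span trend removed and -0.19 to 0.22 without single libraries. Irx1 between low groups was -0.21 in the 8 libraries and -0.21 to 0.46 without single libraries, and Irx2 between high groups -0.76 to 0.24. By plain library totals, without TMM, Irx3 stood at 55.8 and 43.7 CPM in control high and 81.2 and 57.8 in mutant high libraries. These groups then did not overlap. Irx2 then averaged 20.6 CPM in control high and 25.4 in mutant high cells, the reverse of the order with TMM. The cause was not tested.

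Other loci called within 500 kb, with 5 tested on chromosome 8 and 9 on chromosome 13, numbered 3, 7, 11, 6 and 3. The order of comparisons is low, high, control, mutant and interaction. Shares called over all loci were 8.03%, 27.5%, 52.3%, 32.2% and 10.3%. Within 250 kb the counts were 1, 1, 4, 2 and 1. Within 1000 kb control populations gave 17 and mutant populations 11, and the other comparisons are not given here. The numbers of loci tested within 250 and 1000 kb are not given either, so these counts cannot be set beside the shares. Without single libraries the counts within 500 kb ran from 1 to 3, 3 to 7, 6 to 12, 5 to 7 and 1 to 4. Irx1 without single libraries ran from -2.21 to -0.20 between high groups and from 0.45 to 2.45 between mutant populations. Irx1 and Irx4 held 120 and 59 fragments over all 12 libraries, which limits the precision of their values. The replicate block of the description numbers could not be fitted for mutant against control cells.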

Other observations

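The ratio of Irx5 to Irx3 fragments does not depend on library scaling, and was computed after their levels had been seen. In control low libraries there were 23.4, 7.69, 15.8 and 26.4 Irx5 fragments per 100 Irx3 fragments, and in control high libraries 9.17 and 9.55. Mutant low libraries had 32.3, 32.4, 45.4 and 55.7 and mutant high libraries 31.2 and 31.1. The lowest mutant value, 31.1, was above the highest control value, 26.4. How often other pairs of loci separate the genotypes in this way was not examined, so no test is read from it. The control low values rest on 4 to 37 Irx5 fragments a library. Irx3 alone did not separate the genotypes in high cells in TMM-scaled CPM, where its levels overlapped. By plain library totals its levels did not overlap there.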
